A study of Homo sapiens with 33 samples.

Results

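The genes described here are the insulin-like growth factor (IGF) binding proteins and receptors, 10 genes of the 58302 in the deposited expression matrix. They were chosen by name and are IGFBP2, IGFBP3, IGFBP4, IGFBP5, IGFBP6, IGFBP7, IGF1R, IGF2R, INSR and IRS1, each of which matched 1 row. IGF1 and IGF2 are secreted growth factors that signal through the tyrosine kinase receptor IGF1R, and insulin signals through its close relative INSR. IRS1 is the docking protein that links both receptors to PI3K and AKT. The secreted IGFBPs bind the ligands outside the cell and hold them away from the receptors or carry them, whereas IGF2R, which is also the cation-independent mannose 6-phosphate receptor, takes up IGF2 and sorts enzymes to the lysosome without kinase activity. IGFBP7 binds IGFs only weakly, and several IGFBPs are known components of the senescence-associated secretory phenotype (SASP).

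RNA-seq was performed on 33 libraries of 6 established human cell lines. H2052, H2452, H28 and MSTO-211H, from malignant pleural mesothelioma, are the lines the study calls sensitive to palbociclib, an inhibitor of the cell cycle kinases CDK4 and CDK6. The lines it calls resistant are MPP89, in which RB1 is mutated, and MeT-5A, mesothelial cells immortalized by SV40. Cells received 0.1% DMSO (14 libraries) or 1 µM palbociclib (14 libraries) for 9 to 10 days, in 14 paired experiments of which 11 were in sensitive and 3 in resistant lines. H2052 and MPP89 had 2 pairs, H2452, H28 and MSTO-211H had 3 and MeT-5A had 1, besides 1 untreated MeT-5A library. In 4 washout libraries, 1 for each sensitive line, the drug was removed for 48 h after 10 days of palbociclib. Replicates are experiments with the same line, so p-values within a line measure the spread between experiments. Where a treatment effect was fitted as shared by several lines, they also take in differences in response between those lines. They do not measure the spread between tumours, and the resistant class rests on 2 lines.

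Values are in CP20M, read counts that the authors scaled to a common library size, which add up to between 20007662 and 20021400 per library. Sequencing depth was estimated from whole numbers missing among the low CP20M values, which were rounded up. It ranged from 12750000 to 19750000 reads in 23 libraries, so 1 read was worth at most 1.57 CP20M there. The 10 libraries without an estimate had no such gaps, which arise only below the common library size. Their depth was thus about that size or more. Changes were computed as differences of log2(CP20M + 10), which understates them for genes at low level, and were tested over 17803 genes with at least 100 CP20M in 1 or more libraries. A gene is called regulated when limma's moderated test gave a Benjamini-Hochberg adjusted p under 0.05 and the fold change exceeded 1.5. All 10 genes passed the filter on low values, IGFBP4 and IGFBP5 through other lines than those in which they were near 0. Of the mesothelial markers, MSLN ranged from 1 to 6853 CP20M with a median of 905, CALB2 was at 0 in 6 libraries and KRT5 did not exceed 22. Of 4 leukocyte markers, CD3E was at 0 in 33 libraries and PTPRC did not exceed 42, whereas CD14 reached 1130, and the sum of the 4 was between 0 and 363 in DMSO and between 0 and 1130 with palbociclib. The sum of 3 endothelial markers was between 3 and 150 CP20M in DMSO and between 12 and 68 with palbociclib. In bulk RNA, fewer cells of a type and less RNA per cell cannot be told apart. Experiment 2 of H2452 stood apart in both of its libraries, with IGFBP2, IGFBP5 and IGFBP6 high and INSR and IRS1 low, and tests of palbociclib in that line, control means and IGFBP shares are also given without it, the last 2 as a choice made after seeing the data.

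The 10 genes lie on 8 chromosomes (GENCODE 44, GRCh38). IGFBP2 (chr2:216632828-216664436, plus strand) and IGFBP5 (chr2:216672105-216695549, minus strand) are neighbours, 7668 bases apart, and IRS1 (chr2:226731312-226799820) is on the same chromosome. IGFBP3 is at chr7:45912245-45921874, IGFBP4 at chr17:40443450-40457725, IGFBP6 at chr12:53097436-53102345, IGFBP7 at chr4:57030773-57110385, IGF1R at chr15:98648539-98964530, IGF2R at chr6:159969082-160113507 and INSR at chr19:7112255-7294414. IGFBP7 shares 260 exonic bases with POLR2B and 94 with IGFBP7-AS1, both on the opposite strand, which reached 4732 and 5015 CP20M. IGF2R shares 571 with the pseudogene CHP1P2 on its own strand, which did not exceed 187 CP20M, and IGFBP5 shares 487 with DIRC3-AS1 on the opposite strand, which did not exceed 23. The libraries were directional, but whether reads were counted by strand is not given in the sources used here, so reads in these stretches may belong to either gene. This matters most for IGFBP7 in MSTO-211H, where it did not exceed 490 CP20M. The part of such reads in the IGFBP7 values was not tested.

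Promoters of 9 of the 10 genes were found among RefSeq entries (GRCh38.p14), which hold 250 bases before and 50 after the transcription start. Those of IGFBP3 (chr7:45921223-45921522, minus strand), IGFBP4 (chr17:40443200-40443499, plus strand) and IGF2R (chr6:159968832-159969131, plus strand) are shown because these 3 genes were called up under palbociclib. They are written 5′ to 3′ on the gene's strand, and capitals mark the TATA box letters TATAAA, a common variant of that box, TATATA, or an E-box, CACGTG, each searched on both strands, as were the other letters named here.
IGFBP3: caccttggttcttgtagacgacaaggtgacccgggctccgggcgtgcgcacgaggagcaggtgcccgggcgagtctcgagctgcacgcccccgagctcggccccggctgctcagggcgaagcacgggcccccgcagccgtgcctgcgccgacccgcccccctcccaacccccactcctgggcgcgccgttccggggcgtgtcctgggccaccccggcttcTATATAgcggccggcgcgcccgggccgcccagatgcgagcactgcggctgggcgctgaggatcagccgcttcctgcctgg
IGFBP4: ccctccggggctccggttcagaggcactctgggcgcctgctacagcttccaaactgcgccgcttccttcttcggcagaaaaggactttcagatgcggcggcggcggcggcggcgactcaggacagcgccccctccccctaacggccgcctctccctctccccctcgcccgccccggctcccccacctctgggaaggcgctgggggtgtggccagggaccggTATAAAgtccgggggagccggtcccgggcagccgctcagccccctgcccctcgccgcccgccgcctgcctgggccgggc
IGF2R: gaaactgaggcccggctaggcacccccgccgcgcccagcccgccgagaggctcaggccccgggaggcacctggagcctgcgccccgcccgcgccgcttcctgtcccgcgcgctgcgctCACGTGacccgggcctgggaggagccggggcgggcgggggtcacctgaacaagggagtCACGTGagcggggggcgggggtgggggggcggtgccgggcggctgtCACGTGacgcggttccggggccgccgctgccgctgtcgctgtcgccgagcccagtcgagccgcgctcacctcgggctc
The promoter of IGFBP3 held 1 TATATA and that of IGFBP4 held 1 TATAAA, which were found in 3.99% and 11.5% of all 35116 promoters of the same length. That of IGF2R held neither, and had 3 CACGTG motifs (found in 7.26% of promoters), each within the longer TCACGTGA (0.980%). The letters GGGCGG occurred 2 times in IGFBP3, 2 times in IGFBP4 and 6 times in IGF2R, and in 45.0% of all promoters. Members not called up had such letters too: IRS1 had 1 CACGTG and 4 GGGCGG, INSR had 4 GGGCGG and IGF1R 2, whereas IGFBP5 had 0. IGFBP7, which was also called up, is the member without a promoter entry. Such matches describe letters in these windows and do not show that a factor binds there.

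To see which members each line expressed without drug, levels in the 15 control libraries were compared. The lines carried different sets of binding proteins: IGFBP4 was high in H2052 and H2452 and nearly absent in H28, IGFBP5 was high in both resistant lines and nearly absent in H28 and MSTO-211H, and IGFBP7 was low in MSTO-211H. Differences among the 6 lines were called for 9 of the 10 genes (limma F test), as for 95.2% of all genes tested, so such a difference is the rule in this comparison.

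**Figure D1:**
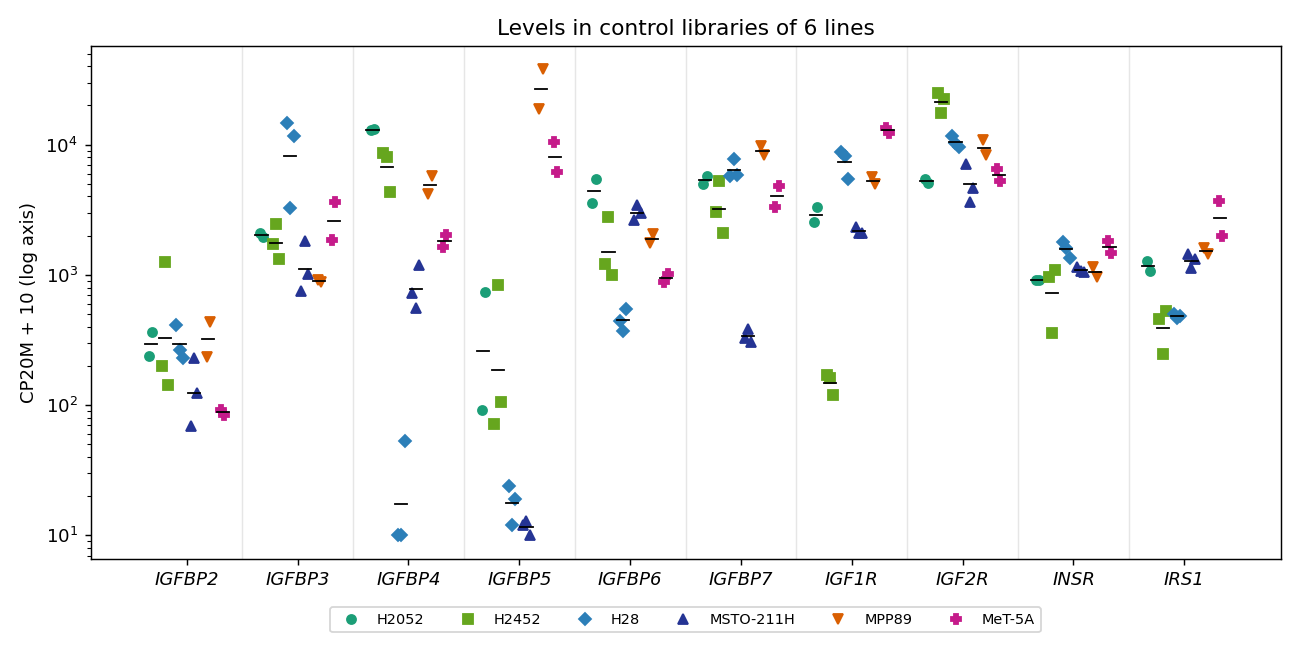
Control levels of the 10 genes. Each point is 1 DMSO or untreated library (CP20M + 10, log axis), grouped by gene and coloured by line, and black bars are means on the log scale. IGFBP4 and IGFBP5 spread over the widest range between lines, and INSR over the narrowest.

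IGFBP4 measured 13009 and 13109 CP20M in the control libraries of H2052 and 8579, 8054 and 4300 in H2452. It was at 4161 and 5749 in MPP89, at 1629 and 2023 in MeT-5A, at 718, 545 and 1191 in MSTO-211H and at 0, 0 and 43 in H28. H2052 thus lay above every other line, H2452 and MPP89 overlapped, and H28 lay below the rest (F test, adjusted p = 1.46e-08).

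IGFBP5 was at 18902 and 37917 CP20M in MPP89 and at 10523 and 6209 in MeT-5A. It was at 81 and 735 in H2052, at 62, 829 and 95 in H2452, at 14, 2 and 9 in H28 and at 2, 3 and 0 in MSTO-211H. Both resistant lines lay above the 4 sensitive lines, while H2052 overlapped H2452 and H28 overlapped MSTO-211H (F test, adjusted p = 2.06e-07).

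IGFBP3, the main carrier of IGFs in serum, was highest in H28, at 14764, 3248 and 11664 CP20M, and lowest in MPP89, at 907 and 875. Every pair of neighbouring lines in this order overlapped, although the spread over all lines was called (adjusted p = 0.00044). IGFBP7 was at 9768 and 8284 CP20M in MPP89 and at 320, 376 and 297 in MSTO-211H, below every other line (adjusted p = 1.79e-08). IGFBP6, which prefers IGF2 over IGF1, averaged 4502 ± 1329 CP20M in H2052 (SD, n = 2) and 443 ± 88.9 in H28 (SD, n = 3), the top and the bottom of its order (adjusted p = 4.12e-06). IGFBP2 ranged from 59 to 1248 CP20M over the control libraries and was the member without a called difference (adjusted p = 0.0827). For IGFBP2 the difference was called with median-of-ratios scaling (adjusted p = 0.048), with upper-quartile scaling (0.0348), and without the DMSO library of experiment 2 (0.00577) or experiment 3 (0.0255) of H2452.

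Among the receptors, IGF1R was at 13442 and 12336 CP20M in MeT-5A and at 8703, 8195 and 5430 in H28. Means were 5301 ± 455 in MPP89 and 2907 ± 538 in H2052 (SD over 2 libraries) and 2157 ± 142 in MSTO-211H (SD over 3), and IGF1R was at 159, 152 and 110 CP20M in H2452. MeT-5A lay above and H2452 below every other line, and H28 and MPP89 overlapped (adjusted p = 3.86e-11). IGF2R was at 24990, 17344 and 22298 CP20M in H2452, above every other line (adjusted p = 5.59e-06). H28 averaged 10491 ± 1081 CP20M (SD, n = 3) and overlapped MPP89, and MeT-5A, H2052 and MSTO-211H overlapped at averages of 5865, 5236 and 5135 CP20M.

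In H2452 INSR was at 955, 350 and 1083 CP20M in DMSO. INSR spanned from 796 ± 392 CP20M in H2452 (SD, n = 3) to 1648 ± 252 in MeT-5A (SD, n = 2), the narrowest spread of the 9 called genes (log2 difference 1.19, adjusted p = 0.0219). Without experiment 2, INSR averaged 1019 CP20M in H2452, above the 902 of H2052, which was then the lowest line. This INSR call was lost without the untreated MeT-5A library (adjusted p = 0.0591), without MeT-5A as a whole (0.0508), without the first DMSO library of H28 (0.0521) and without the filter on low values (0.101). IRS1 was at 3690 and 1985 CP20M in MeT-5A, and averaged 473 ± 13.5 in H28 and 402 ± 146 in H2452 (SD, n = 3 each), which overlapped at the bottom (adjusted p = 3.03e-06). Without experiment 2 IRS1 averaged 484.5 in H2452, so the order of these lines turned. Of the other H2452 control means, IGFBP2 moved from 524 to 162 CP20M without that experiment, IGFBP5 from 329 to 78.5 and IGFBP6 from 1647 to 1094.

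Levels of different genes can be compared only per length, so CP20M was divided by the exonic length of each gene in kb. Of the summed control level of the 6 binding proteins per kb, IGFBP4 made up 47.0% in H2052 and also 47.0% in H2452, or 53.7% there without experiment 2. IGFBP7 made up 56.5% in H28, followed by IGFBP3 with 36.8%, and IGFBP6 made up 73.0% in MSTO-211H. In MPP89, IGFBP7 and IGFBP5 made up 36.0% and 33.8%, and in MeT-5A they made up 38.0% and 23.3%. On the same scale IGF1R reached 925 CP20M per kb in MeT-5A and 10.1 in H2452, whereas IGF2R reached 953 in H2452 and 259 in MeT-5A. Lengths are those of GENCODE 44, a later annotation than the authors used.

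The next comparison asked how palbociclib changed these genes in the sensitive lines. IGFBP3, IGFBP4, IGFBP7 and IGF2R were up-regulated over the 11 pairs, by 4.97-fold, 1.85-fold, 1.65-fold and 1.54-fold, and no member was down-regulated. Up-regulation was thus called for 4 of the 10 genes, with 5.58% of all genes tested called up and 9.37% called down. The members were chosen with earlier results of these data known, and the study lists IGFBPs among the genes raised by palbociclib. These shares are therefore a description and no test of the members as a set. The median log2 fold change was 0.40 over the 10 members and -0.11 over all genes tested. Of all called genes 37.3% were up with the deposited scaling and 65.7% with median-of-ratios scaling, which moved the median of all genes by 0.17; the 4 members were called up under both, and IGFBP6 was added under the second.

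**Figure D2:**
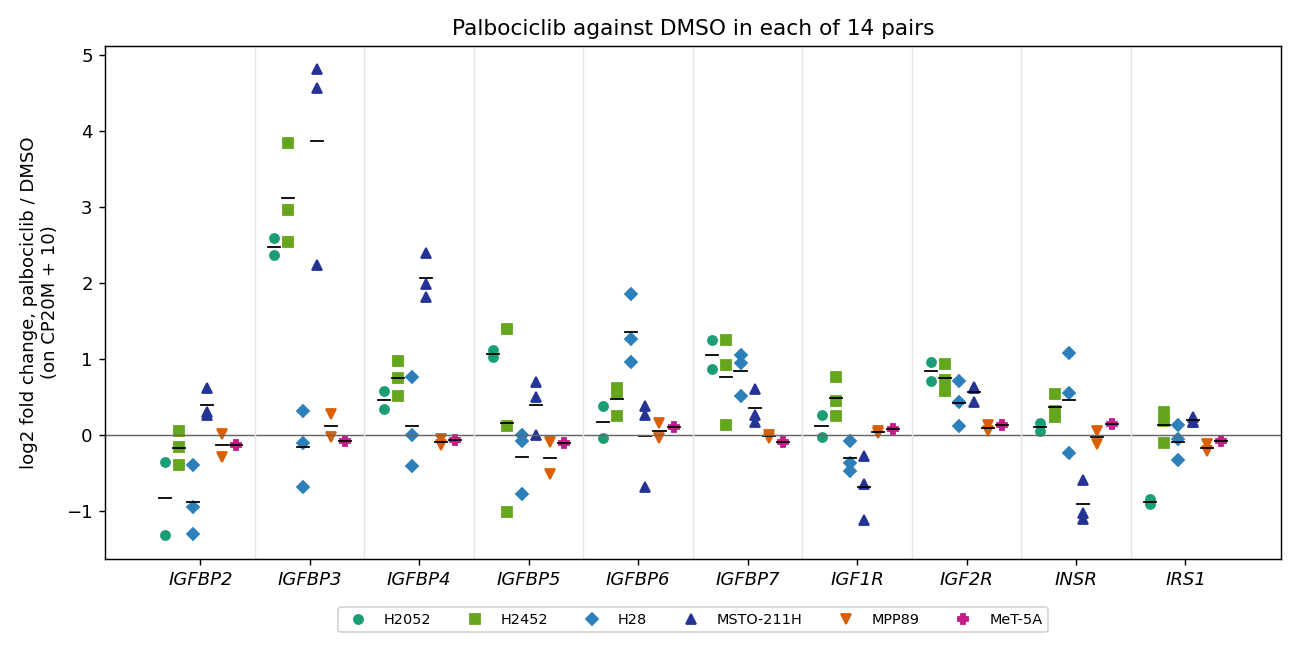
Response of each gene in each experiment. Each point is the log2 fold change (palbociclib against DMSO, on CP20M + 10) of 1 of the 14 pairs, coloured by line, and black bars are line means. IGFBP7 and IGF2R lie above 0 in 11 of 11 sensitive pairs, whereas IGFBP3 rises in H2052, H2452 and MSTO-211H and scatters around 0 in H28.

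IGFBP3 rose from 2086 and 1932 CP20M to 10850 and 11669 in H2052 and from 1708, 2443 and 1310 to 13411, 14239 and 18968 in H2452. In MSTO-211H it rose from 736, 1805 and 1004 to 17669, 8559 and 28579. In these 3 lines every palbociclib library lay above every DMSO library. In H28, whose DMSO libraries were at 14764, 3248 and 11664, the palbociclib libraries were at 9145, 3008 and 14538, with 1 pair higher and 2 lower. Over the 11 pairs the log2 fold change of IGFBP3 was 2.31 ± 0.47 (SE; 95% confidence interval 1.3 to 3.33), with adjusted p = 0.00133 and 9 pairs higher. With the 4 line means as units, IGFBP3 had an adjusted p of 0.0479.

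IGFBP4 binds both IGFs and is cut by pappalysins. It went from 13009 and 13109 CP20M to 19449 and 16573 in H2052, from 8579, 8054 and 4300 to 14450, 11546 and 8423 in H2452 and from 718, 545 and 1191 to 3828, 1949 and 4777 in MSTO-211H. In H2052 and MSTO-211H the groups did not overlap, in H2452 they overlapped, and in H28 the gene was near 0 with or without drug, at 0, 7 and 30 CP20M with palbociclib. The log2 fold change of IGFBP4 over the 11 pairs was 0.88 ± 0.23 (SE), with adjusted p = 0.00563. The IGFBP4 call rested on MSTO-211H: without that line the log2 fold change was 0.44, below the fold threshold, and with the 4 line means as units it was 0.85 with adjusted p = 0.0993.

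**Figure D3:**
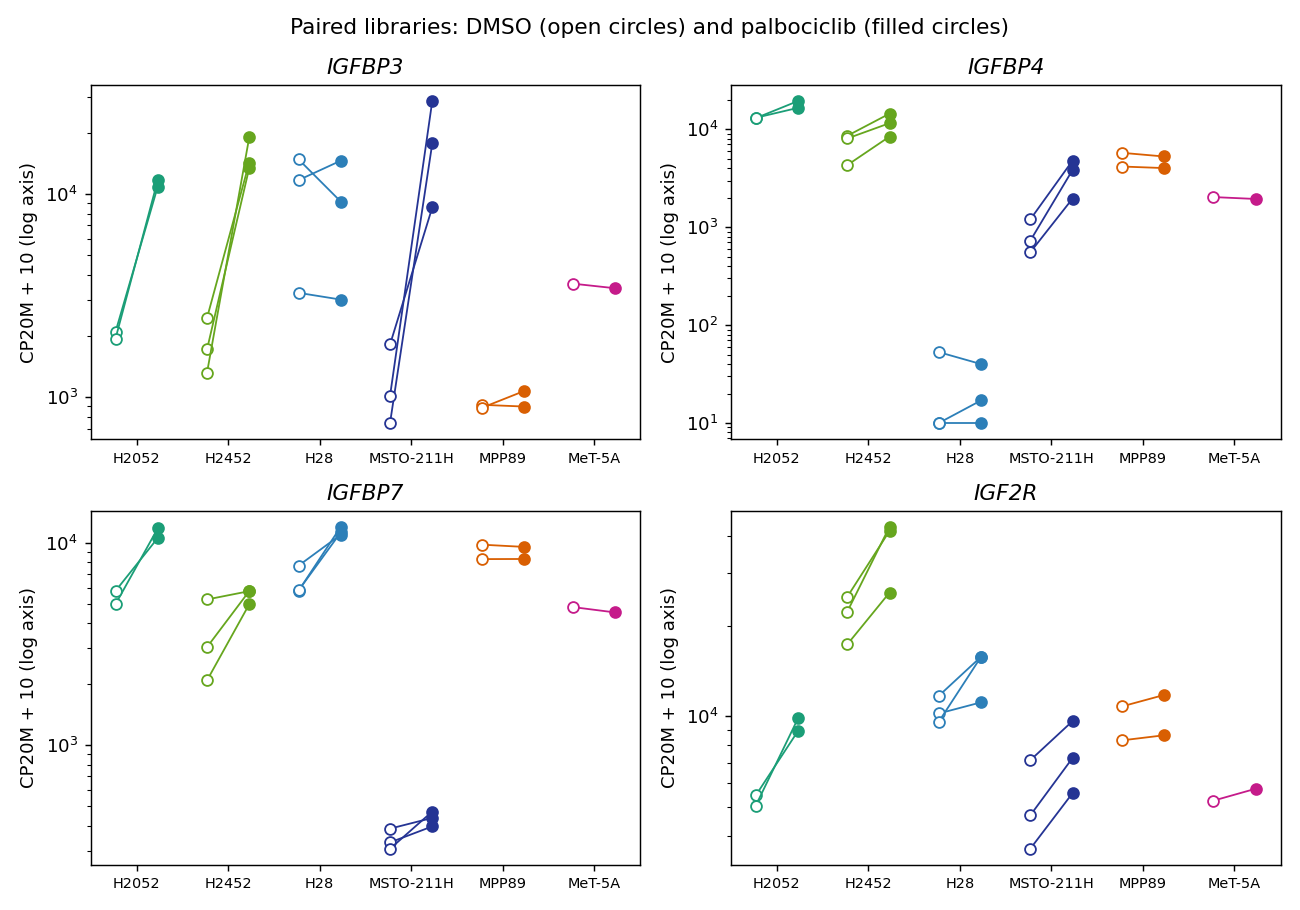
DMSO and palbociclib libraries of the 4 genes called up over the sensitive pairs. Open circles are DMSO and filled circles palbociclib libraries (CP20M + 10, log axis), and lines join the 2 libraries of an experiment. The lines of MPP89 and MeT-5A are nearly level, and IGFBP4 in H28 stays near the bottom of the axis.

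IGFBP7 was higher with palbociclib in 11 of 11 pairs. It went from 4955 and 5767 CP20M to 11765 and 10537 in H2052 and from 5771, 7687 and 5800 to 11972, 10945 and 11229 in H28. In H2452 it was at 3036, 5229 and 2077 in DMSO and at 5756, 5750 and 4954 with palbociclib, and in MSTO-211H it was at 320, 376 and 297 and at 386, 426 and 459. The groups overlapped in H2452 alone among these 4 lines, through the DMSO library of experiment 2. The log2 fold change of IGFBP7 was 0.73 ± 0.11 (SE; 95% confidence interval 0.48 to 0.97), with adjusted p = 0.00018.

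The remaining binding proteins were not called over the 11 pairs. IGFBP6 had a log2 fold change of 0.53 ± 0.18 (SE) with adjusted p = 0.0238, below the fold threshold, and was higher in 9 of 11 pairs. It ranged from 359 to 5441 CP20M in DMSO and from 707 to 5307 with palbociclib, so the groups overlapped. IGFBP2, often linked to PI3K signalling, had a log2 fold change of -0.33 ± 0.18 (SE) with adjusted p = 0.134 and was lower in 7 pairs. Without MSTO-211H, the line in which it was higher in 3 of 3 pairs, IGFBP2 was called down, at -0.60 with adjusted p = 0.0135. IGFBP5, which binds extracellular matrix, had a log2 fold change of 0.27 ± 0.21 (SE) with adjusted p = 0.299. In DMSO and palbociclib libraries of H28 and MSTO-211H IGFBP5 did not exceed 14 CP20M, so its sensitive lines with a measurable level were H2052 and H2452.

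IGF2R was the receptor that rose. It went from 5441 and 5031 CP20M to 8924 and 9829 in H2052, from 24990, 17344 and 22298 to 41433, 25812 and 42766 in H2452, from 11686, 10206 and 9582 to 15773, 11118 and 15761 in H28 and from 7128, 3610 and 4667 to 9624, 5534 and 7250 in MSTO-211H. The palbociclib library was the higher one in 11 of 11 pairs, and the groups overlapped in H28 and MSTO-211H through differences between experiments. The log2 fold change of IGF2R was 0.62 ± 0.075 (SE; 95% confidence interval 0.46 to 0.79), with adjusted p = 2.63e-05. It was 0.58 without H2052 and 0.58 without H2452, just under the fold threshold, with adjusted p of 0.000371 and 0.000969.

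IGF1R, INSR and IRS1 had no called change over the 11 pairs. Their log2 fold changes were -0.12 (95% confidence interval -0.43 to 0.19) for IGF1R, -0.00 (-0.39 to 0.38) for INSR and -0.09 (-0.35 to 0.16) for IRS1, with adjusted p of 0.522, 0.991 and 0.529. With median-of-ratios scaling the 3 values were above 0, at 0.08, 0.19 and 0.10, so no direction can be given for them. The sum of 6 proliferation genes, which include MKI67 and TOP2A, ranged from 8307 to 37280 CP20M over the DMSO and from 1636 to 37811 over the palbociclib libraries of the 6 lines. All 6 were down-regulated over the sensitive pairs, with a median log2 fold change of -2.67. Their part in the changes of the IGF genes was not tested.

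The 4 sensitive lines did not respond alike. The response differed among them for 7 of the 10 genes (limma F test of treatment by line), where 37.1% of all genes tested were called. The adjusted p was 0.00163 for IGFBP4, 0.00217 for IGFBP3, 0.00296 for IRS1, 0.00735 for IGF1R, 0.00819 for INSR, 0.0146 for IGFBP6 and 0.0165 for IGFBP2. No difference among lines was called for IGFBP5 (adjusted p = 0.222), IGFBP7 (0.202) or IGF2R (0.226), but without experiment 2 of H2452 it was called for IGFBP5 (0.0379) and IGFBP7 (0.0428). The IGFBP6 call was lost without experiment 3 of H28 (0.0524). Without the pairing of libraries as a block, 2 of the 10 genes were called, IGFBP3 and IGF1R.

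In H2052, 5 of the 10 genes were called, where 17.7% of all genes tested were. IGFBP3 (log2 fold change 2.48 ± 0.098 SE, adjusted p = 0.032), IGFBP5 (1.07 ± 0.12, adjusted p = 0.038), IGFBP7 (1.06 ± 0.14, adjusted p = 0.0397) and IGF2R (0.84 ± 0.11, adjusted p = 0.0398) rose. IRS1 fell from 1258 and 1052 CP20M to 696 and 554, by 0.88 on the log2 scale (adjusted p = 0.0376), and was no longer past the fold threshold with median-of-ratios scaling (-0.57). IGFBP5 rose in both pairs of H2052 but from unequal levels, from 81 to 187 and from 735 to 1511 CP20M. Without the pairing of libraries the IGFBP5 call was lost (adjusted p = 0.618). This line has 2 pairs, and fitted without the mean-variance trend or without the filter on low values no gene was called in it.

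In H2452, 3 of the 10 genes were called, where 16.8% of all genes tested were. They were IGFBP3 (3.12 ± 0.28, adjusted p = 0.0138), IGFBP4 (0.75 ± 0.11, adjusted p = 0.0206) and IGF2R (0.75 ± 0.11, adjusted p = 0.0223). IGFBP6 (0.48, adjusted p = 0.0318) and INSR (0.36, adjusted p = 0.0432) passed the adjusted p but not the fold threshold. Without experiment 2, IGFBP3, IGFBP4, IGFBP6 and IGFBP7 were called and IGF2R was not (0.83, adjusted p = 0.0643). Without experiment 1 or experiment 3, no gene of the whole table was called.

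In H28 the members that rose were IGFBP6 and IGFBP7. IGFBP6 rose from 433, 359 and 536 CP20M to 1054, 707 and 1968, a log2 fold change of 1.36 ± 0.20 (adjusted p = 0.0306) with no overlap between the groups, and IGFBP7 rose by 0.84 ± 0.13 (adjusted p = 0.0336). These were the 2 of 10 genes called, where 13.2% of all genes tested were. IGFBP3, whose highest control mean was in this line, had a log2 fold change of -0.16 (95% confidence interval -0.76 to 0.44, adjusted p = 0.605). Without any 1 of the 3 experiments of H28 no gene of the whole table was called.

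In MSTO-211H, 3 of the 10 genes were called, where 13.8% of all genes tested were. IGFBP3 rose by 3.87 ± 0.59 (adjusted p = 0.0374) and IGFBP4 by 2.07 ± 0.14 (adjusted p = 0.0349). INSR fell from 1134, 1059 and 1034 CP20M to 520, 699 and 502, by 0.91 on the log2 scale (adjusted p = 0.0375), with no overlap between the groups. IGF1R was lower in 3 of 3 pairs, at 2321, 2080 and 2069 CP20M in DMSO and at 1063, 1711 and 1317 with palbociclib, without being called (-0.68, adjusted p = 0.0769), although the IGF1R groups did not overlap. In H28, by contrast, the palbociclib libraries held INSR at 2628, 1359 and 2810 CP20M against 1789, 1602 and 1329 in DMSO. Without any 1 of the 3 experiments of MSTO-211H no gene of the whole table was called.

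These changes altered the share of IGFBP3 in the summed level of the 6 binding proteins per kb. It averaged 8.20% ± 2.85 in DMSO and 46.5% ± 14.9 with palbociclib across the 3 pairs of MSTO-211H (SD), and 6.08% ± 0.81 and 26.1% ± 8.21 across those of H2452. Without experiment 2 the H2452 means for IGFBP3 were 6.26% and 28.4%. In H2052 it was 3.52% ± 0.58 and 12.2% ± 1.06 (SD, n = 2). In H28 the IGFBP3 share went from 48.7% to 22.2%, from 14.2% to 9.56% and from 42.4% to 30.3%, lower in 3 of 3 pairs although the groups overlapped. In the other sensitive lines it was higher in each pair. These shares describe composition and were not tested.

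In the resistant lines no member was called, and the values with and without palbociclib lay close together for most members. In MPP89 IGFBP3 was at 907 and 875 CP20M in DMSO and at 889 and 1060 with palbociclib, and in MeT-5A it was at 3604 and 3421. IGFBP7 was at 9768 and 8284 CP20M and at 9522 and 8296 in MPP89, and at 4794 and 4509 in MeT-5A. IGFBP5, whose control level was lower in each sensitive line, was at 18902 and 37917 and at 13259 and 35558 CP20M in MPP89, and at 6209 and 5752 in MeT-5A. The fold change of IGFBP5 in experiment 1 of MPP89 was 0.70, the widest change of a member in a resistant pair. Over 9 alternatives the adjusted p of IGFBP5 in MPP89 (limma) went as low as 3.97e-06. Its log2 fold changes there lay between -0.33 and -0.30, under the fold threshold, so it was never called. By limma none of the 10 genes was called in MPP89, where 0% of all genes tested were called, and none over the 3 resistant pairs, where also 0% were called. At an unadjusted p under 0.05 there were 1 of 10 members and 918 of 17803 genes tested in MPP89. Over the resistant pairs there were 4 of 10 members and 1258 of 17803 genes. Over the sensitive pairs there were 5 of 10 members and 9819 of 17803 genes. No trait of the members is read from these counts. Log2 fold changes over the resistant pairs lay between -0.24 (IGFBP5) and 0.11 (IGF2R). The interval of IGFBP3 there was -0.12 to 0.23.

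Whether sensitive and resistant lines differed in response was tested with an interaction term. The fit took the 14 pairs as units, although the class belongs to the line, with 4 sensitive and 2 resistant lines. Repeat experiments of a line thus counted as replicates of its class, and this contrast was not fitted with line means. The difference was called for 2 of the 10 genes, where 9.37% of all genes tested were called. IGFBP7 rose by 0.77 ± 0.22 more in sensitive than in resistant pairs (adjusted p = 0.0429), and IGF2R by 0.52 ± 0.15 more (adjusted p = 0.0363). For IGFBP3 the difference was 2.26 ± 0.95 with adjusted p = 0.137 (95% confidence interval 0.25 to 4.26), and for IGFBP4 it was 0.97 ± 0.45 with adjusted p = 0.183, neither of which was called. Without the pairing of libraries IGFBP7 and IGF2R had adjusted p of 0.0564 and 0.243. Both calls were also lost without either pair of MPP89, without the pair of MeT-5A, and without the first pair of H2052 or of H2452, with adjusted p between 0.05 and 0.172. The IGFBP7 call was lost as well without pair 2 of H2052, pair 3 of H2452, pair 1 or pair 3 of H28 or pair 3 of MSTO-211H, with adjusted p between 0.0528 and 0.0576. Of the called genes 16.7% had the higher response in sensitive lines with the deposited scaling and 59.9% with median-of-ratios scaling.

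The washout experiments asked whether these changes persisted 48 h after drug removal. In 3 of 4 lines IGFBP3 stayed well above its DMSO level after washout. It was at 1932 CP20M in DMSO, 11669 with palbociclib and 7828 after washout in H2052, and at 1310, 18968 and 9972 in H2452. In MSTO-211H it was at 1004, 28579 and 24810, and in H28 at 11664, 14538 and 14355. Each of these is 1 library, so the spread comes from the 4 lines.

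**Figure D4:**
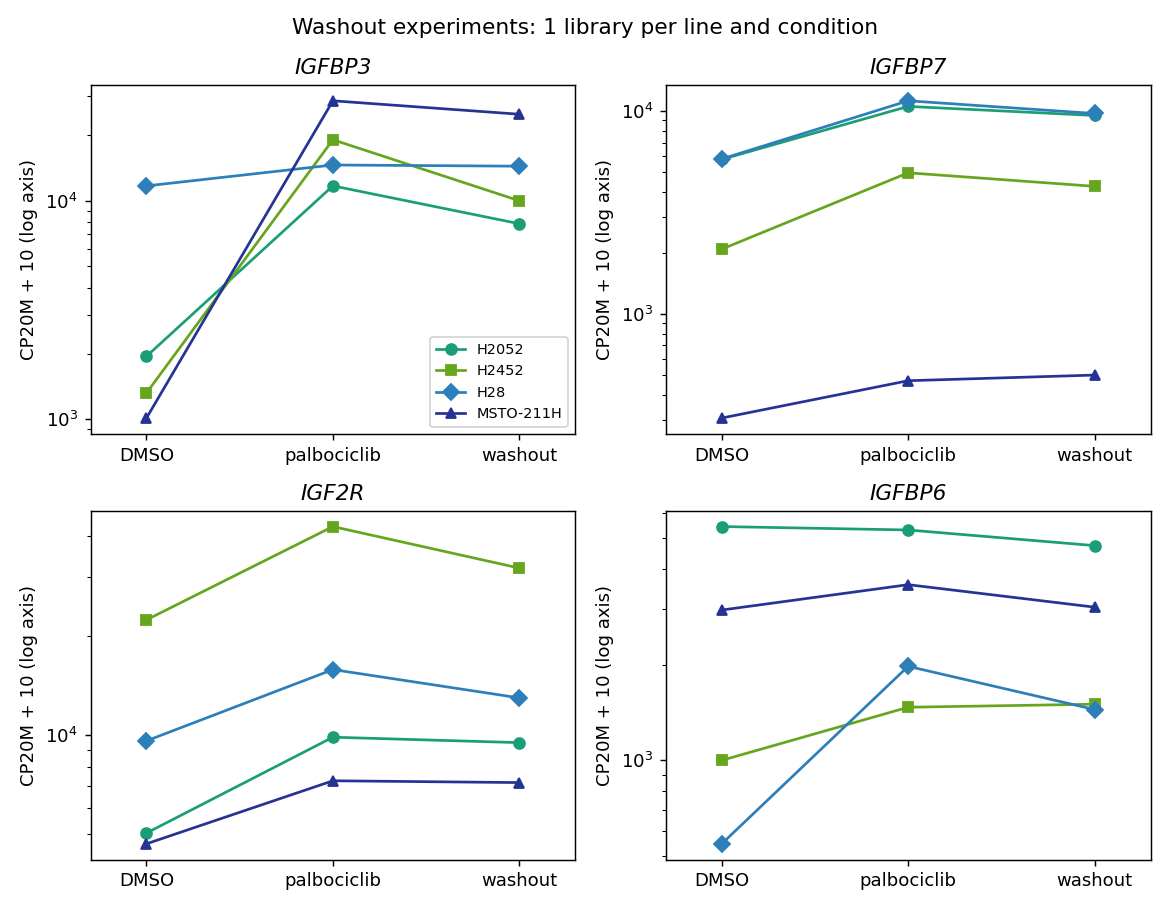
DMSO, palbociclib and washout libraries of the 4 washout experiments for IGFBP3, IGFBP7, IGF2R and IGFBP6. Each point is 1 library (CP20M + 10, log axis) and lines join the libraries of 1 line. After washout IGFBP7 and IGF2R remain above DMSO in 4 of 4 lines.

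IGFBP7 was at 5767, 10537 and 9505 CP20M (DMSO, palbociclib, washout) in H2052, at 2077, 4954 and 4248 in H2452, at 5800, 11229 and 9723 in H28 and at 297, 459 and 490 in MSTO-211H. IGF2R was at 5031, 9829 and 9462 CP20M in H2052, at 22298, 42766 and 32003 in H2452, at 9582, 15761 and 12934 in H28 and at 4667, 7250 and 7159 in MSTO-211H. For both genes the washout library was above the DMSO library in 4 of 4 lines. Against DMSO, washout was called higher for IGFBP3 (log2 fold change 2.46 ± 0.62, adjusted p = 0.0345), IGFBP7 (0.80 ± 0.10, adjusted p = 0.00451) and IGF2R (0.62 ± 0.10, adjusted p = 0.00935). These were 3 of the 10 genes, where 5.76% of all genes tested were called. The IGFBP3 and IGF2R calls were lost without the H2052 or the MSTO-211H washout library, with IGFBP3 at 2.61 and 1.74, and that of IGFBP3 also without the H2452 library; the 3 calls were lost without the line as a block. These comparisons share the DMSO libraries with those above.

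Against palbociclib, none of the 10 genes was called after washout by limma, where 1.4% of all genes tested were called, 250 genes that were all higher. At an unadjusted p under 0.05 there were 0 of 10 members and 2322 of 17803 genes tested. The washout against palbociclib difference was -0.43 (95% confidence interval -1.81 to 0.95) for IGFBP3, -0.12 (-0.35 to 0.10) for IGFBP7 and -0.19 (-0.43 to 0.04) for IGF2R, with adjusted p of 0.848, 0.685 and 0.488. In MSTO-211H INSR was at 1034, 502 and 537 CP20M (DMSO, palbociclib, washout) and IGF1R at 2069, 1317 and 1326, so both washout libraries lay nearer to palbociclib than to DMSO. IRS1 in H2052 was at 1052, 554 and 798 CP20M. IGFBP6 in H28 was at 536, 1968 and 1436. Over the same libraries MKI67, a marker of cycling cells, was called higher after washout than with palbociclib (2.99 ± 0.55, adjusted p = 0.0348) and was at 4725, 806 and 6920 CP20M in H2052 and at 7680, 177 and 8328 in H2452. In H28 MKI67 was at 10717, 1816 and 4824 and in MSTO-211H at 5593, 777 and 3093, between palbociclib and DMSO. Without the washout library of H2052, H2452 or MSTO-211H 0 genes of the whole table were called, so the MKI67 call was lost there.

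Of the ligand genes, IGF1 and INS were low or at 0, whereas the level of IGF2 depended on the line. IGF2 was at 1754 and 4236 CP20M in control MPP89 and at 422, 238 and 2130 in DMSO libraries of H28, where the palbociclib libraries were at 27, 77 and 173, lower in each pair. In MSTO-211H it was between 8 and 31 in DMSO and between 57 and 170 with palbociclib, so the directions were opposite and the IGF2 change over sensitive pairs was -0.19 ± 0.50 (adjusted p = 0.78). IGF1 was between 0 and 24 CP20M in the DMSO and between 0 and 11 in the palbociclib libraries of the sensitive lines. INS, the insulin gene, was listed at 0 in each of the 14 pairs. IGFALS, which holds IGFs in their circulating complex, was between 8 and 42 CP20M in the sensitive pairs. IGF2 was the 1 gene of these 4 that passed the filter.

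Of the proteases that cut IGFBPs and their inhibitors, 3 of 7 tested were called up over the sensitive pairs and 0 down, beside 5.58% up and 9.37% down among all genes tested. The median log2 fold change was 0.50 for the list and -0.11 over all genes. PAPPA2, which cuts IGFBP3 and IGFBP5, differed by 1.49 ± 0.40, with 10 of 11 pairs higher and 1 lower. In H2452 PAPPA2 went from between 18 and 97 CP20M to between 324 and 1092. No control library exceeded 97 CP20M, so PAPPA2 passed the filter on low values only through libraries that had received palbociclib. Its entry into the test thus depended on the rise, and its place among the 3 called genes is no support for one. Its median over the sensitive pairs was 18 CP20M in DMSO and 47 with palbociclib, so most of these changes were at low levels. STC1 and STC2, stanniocalcins that inhibit pappalysins, rose by 1.12 ± 0.30 (adjusted p = 0.00688) and 1.02 ± 0.26 (adjusted p = 0.00564). Across the 3 pairs of MSTO-211H STC2 averaged 2357 ± 459 CP20M in DMSO and 10064 ± 2803 with palbociclib (SD), and across those of H28 it averaged 2025 ± 238 and 1657 ± 554. STC1 did not exceed 1 CP20M in the DMSO and palbociclib libraries of H2452.

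Downstream of the receptors, 2 of 15 tested genes of the PI3K, AKT and mTOR core were called up over the sensitive pairs and 0 down (median -0.03), beside 5.58% up and 9.37% down among all genes tested. They were the regulatory subunits of PI3K PIK3R2 (0.63 ± 0.083, adjusted p = 5.63e-05) and PIK3R3 (0.63 ± 0.17, adjusted p = 0.00691). PIK3R2 averaged 1412 ± 184 CP20M in DMSO and 2632 ± 558 with palbociclib in H28 (SD, n = 3). PIK3R3 was at 128 and 147 CP20M in DMSO and at 115 in both palbociclib libraries of H2052, against the direction of the other sensitive lines. None of the 8 receptor adaptors tested (median -0.19), the 3 FOXO factors (-0.15), the 3 IGF2 mRNA-binding proteins (-0.07) or the 4 other genes with an IGFBP domain (0.14) was called. Among these last, ESM1 came nearest (0.82 ± 0.33, adjusted p = 0.0534). Of the marker lists, 1 of 5 mesothelial genes tested was called up, CALB2 (1.69 ± 0.41, adjusted p = 0.00409). Its median in DMSO over the sensitive pairs was 25 CP20M. Of the others, MSLN was higher in 10 of 11 pairs and WT1 was lower in 9 of 11, neither of them called. Neither the 1 leukocyte nor the 1 endothelial gene tested was called.

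The genes whose log2 levels ran most like those of the members were found by Pearson's r over the 33 libraries, which share lines and are no independent samples. The highest r was 0.98 with CPA4 for IGFBP4, 0.98 with AC007563.2 for IGFBP5, 0.98 with IGFBP7-AS1 for IGFBP7, 0.97 with CSRP2 for IGF1R and 0.95 with GLB1 for IGF2R. IGFBP7-AS1 is the antisense gene that shares exonic bases with IGFBP7, and GLB1 encodes the lysosomal beta-galactosidase. It was 0.91 with TMEM160 for IRS1, 0.86 with H6PD for IGFBP6, 0.84 with AP1S3 for IGFBP3 and 0.83 with ZNF611 for INSR, and lowest, at 0.64, with PECAM1 for IGFBP2. Among the members themselves, r was -0.66 between IGF1R and IGF2R and 0.66 between IGFBP4 and IGFBP6.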

How the data were processed

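Per the labels, directional libraries were made from total RNA and sequenced as paired-end reads. The authors trimmed reads with Trimmomatic 0.36, mapped them to GRCh38 with STAR 2.5.3, counted them per gene with HTSeq 0.9.1, and deposited CP20M, counts scaled to a common library size and rounded up to whole numbers. This deposited, normalized score is not a read count, so the count model the authors used (DESeq2) was not applied. Here log2(CP20M + 10) was fitted with limma 3.58.1 (lmFit, eBayes with trend) in R 4.3.3 over 17803 genes with at least 100 CP20M in 1 or more libraries, with Benjamini-Hochberg adjustment over these genes. The experiment was a block, as in the study's methods; deviations of paired libraries from their group means correlated, with r from 0.18 to 0.78. Washout was fitted over 12 libraries with the line as a block. Interaction and F tests of response had no fold threshold. Scripts were tested on simulated data. Replicate libraries shared at most 4.33% of equal values. Named genes were the 10 members, called genes of each pathway list (at most 4), the ligands, and for each member the gene with the highest r. Members, lists and tests were chosen with earlier results of these data known. Alternatives varied the pseudocount, filter, scaling, trend, block, lines and replicates.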

Additional observations from a re-analysis of the deposited data

Results flagged for a closer look

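The response to palbociclib differed among the 4 sensitive lines, by the F test of treatment by line, for IGFBP4 (adjusted p = 0.00163), IGFBP3 (0.00217), IRS1 (0.00296), IGF1R (0.00735), INSR (0.00819), IGFBP6 (0.0146) and IGFBP2 (0.0165). In that test 37.1% of all genes tested were called. By the interaction term, the response was also called different between sensitive and resistant lines for IGFBP7 (adjusted p = 0.0429) and IGF2R (adjusted p = 0.0363). This test took pairs and not lines as units, and 9.37% of all genes tested were called in it. The call held in 9 of 22 alternatives for IGFBP7 and in 15 of 22 for IGF2R. Both calls were lost without any 1 of the resistant pairs.

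Among 20 groups of 4 washout differences, 2 had a value far from the other 3; chance gives about 1 in 20. IGFBP4 in H28 had a washout minus palbociclib log2 difference of -2, from 30 and 0 CP20M, near the lower end of the scale. IGFBP7 in H2452 had a washout minus DMSO difference of 1.03, above 0.72 in H2052, 0.74 in H28 and 0.70 in MSTO-211H.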

How the results depend on the processing

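Over the sensitive pairs IGFBP3 and IGFBP7 were called in 24 of 24 alternatives and IGFBP4 and IGF2R in 22 of 24. Leaving out each replicate gave 4 to 5 members up, and without MSTO-211H 1 was down. Of members called, H2052 had 3 with a pseudocount of 1, 0 without the low-value filter and 0 without the trend; H2452 had 0 without the filter, 5 with median-of-ratios scaling, 5 with upper-quartile scaling and 0 to 4 without each replicate. H28 and MSTO-211H each had 0 without the filter and 0 without any 1 replicate. The sensitive-resistant difference had 0 without the filter, 1 without the trend and 0 to 2 without each replicate, the difference among sensitive lines 3 without the filter and 6 to 9 without each replicate, washout against DMSO 1 to 3 and control levels 8 to 10. Without the replicate block, members called were 1 in H2452, 1 in H28, 0 for the sensitive-resistant difference, 2 among sensitive lines and 0 for washout against DMSO. Genes called of the 17803 tested were then 2202, 1691, 1294, 2612 and 0 in the same order. In H2452 the whole table gave 3012 with median-of-ratios and 3010 with upper-quartile scaling. The sensitive-resistant difference gave 1387 without the filter and 1485 without the trend. The difference among sensitive lines gave 4866 without the filter.

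Genes called over the whole table went from 2663 to 1687 with a pseudocount of 50 (sensitive pairs), from 3143 to 1185 with a pseudocount of 1 (H2052), from 1668 to between 177 and 242 without 1 resistant pair, and from 6601 to 2612 without the replicate block (among sensitive lines). Without the filter they were 0 in H2052, 5 in H2452, 2 in H28, 7 in MSTO-211H, 0 for washout against palbociclib and 401 for washout against DMSO. Washout against palbociclib gave 141 and 120 with the other scalings, 0 without the block and 0 to 104 without 1 library; washout against DMSO gave 0 without the block and 232 to 759 without 1 library.

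The changes that reversed were not called. With median-of-ratios and upper-quartile scaling, over sensitive pairs, IGF1R was 0.077 and 0.055, INSR 0.19 and 0.17 and IRS1 0.099 and 0.076; in H2452 IGFBP2 was 0.023 and 0.011; in MSTO-211H IGFBP6 was 0.16 and 0.14; for the sensitive-resistant difference IGF1R was 0.049 and 0.035 and INSR 0.19 and 0.17. With the first scaling alone IRS1 in H28 was 0.047, IGFBP2 in the sensitive-resistant difference 0.0060, IGFBP5 in washout against palbociclib -0.025 and IGF1R in washout against DMSO 0.014; with the second, INSR over resistant pairs was -0.0041, and in washout against palbociclib IGFBP5 was -0.063 and IRS1 -0.028. With a pseudocount of 50, INSR over sensitive pairs was 0.00014, IGFBP4 in H28 -0.0094 and IGFBP5 in washout against palbociclib -0.026; with 1, IGFBP4 in washout against DMSO was -0.57. Without MSTO-211H IGF1R was 0.10 and INSR 0.34, without H2052 IRS1 was 0.079, and with line means INSR was 0.0060.

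Without each replicate, INSR ranged from -0.11 to 0.11 over sensitive pairs, from -0.033 to 0.10 over resistant pairs and from -0.14 to 0.081 for their difference. IGFBP5 in H2452 ranged from -0.45 to 0.75, IGFBP6 in MSTO-211H from -0.21 to 0.33, IGFBP3 over resistant pairs from -0.052 to 0.12, and in H28 IGFBP3 from -0.40 to 0.10, IGFBP4 from -0.20 to 0.38 and IRS1 from -0.19 to 0.036. Without each washout library, IGFBP5 ranged from -0.0060 to 0.21 against palbociclib, and against DMSO IGFBP2 from -0.0080 to 0.39, IGFBP4 from -0.38 to 1.06, IGFBP5 from -0.16 to 0.31, IGF1R from -0.32 to 0.10, INSR from -0.24 to 0.32 and IRS1 from -0.16 to 0.19. The causes were not tested, and lines with 2 pairs were not refitted with 1 pair. Depth could be estimated only below the common library size, so its range has no known upper end. Values near 0 rest on few reads, which limits what can be said of them.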

Other observations

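IGFBP2 and its neighbour IGFBP5 were higher in experiment 2 than in the other experiments of H2052, H2452 and MPP89, with DMSO and with palbociclib. Over the 33 libraries, however, r between the 2 genes was 0.23. In H2052 experiment 2 lasted 10 days and experiment 1 lasted 9, so experiment and duration cannot be told apart there. In H2452, IGFBP2 was at 1248 and 1296 CP20M in experiment 2 (DMSO, palbociclib), at 190 and 142 in experiment 1 and at 133 and 118 in experiment 3. IGFBP5 was at 829 and 2190 CP20M in experiment 2 of H2452, at 62 and 68 in experiment 1 and at 95 and 42 in experiment 3. In MPP89, IGFBP5 was at 37917 and 35558 CP20M in experiment 2 and at 18902 and 13259 in experiment 1, and IGFBP2 at 425 and 428 and at 225 and 183. In MSTO-211H, IGFBP2 was at 219 and 273 CP20M in experiment 2, at 59 and 96 in experiment 1 and at 113 and 137 in experiment 3, and IGFBP5 was between 0 and 11 in these libraries. In H28 the palbociclib library of experiment 2 had the lowest IGFBP2 of its line, at 126 CP20M. Whether experiments with the same number in different lines were done together is not given in the sources used here.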
